A study of Mus musculus with 12 samples.

Results

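Conjugation enzymes and xenobiotic receptors of mouse liver were described through 10 genes, taken by symbol from the 54838 genes of the deposited count table. They are the UDP-glucuronosyltransferase genes Ugt2b1, Ugt2b5, Ugt2b34, Ugt2b35 and Ugt2b36, the sulfotransferase gene Sult1a1, the receptor genes Nr1i2, Nr1i3 and Ahr, and Por. Each symbol matched 1 row, and all 10 were among the 14643 genes that passed the filter on low counts. RNA was sequenced from 12 liver libraries, with 4 labelled CTL, 4 labelled DM and 4 labelled DMH. What DM and DMH stand for is not written in the labels. The title of the series concerns diabetes and a red, protoporphyrin-rich Chlamydomonas reinhardtii, and the labels do not say which libraries, if any, come from animals that received the alga. The labels used here name no genotype, strain, age, treatment or dose for any group, and they do not say whether 2 libraries with 1 label come from different animals. All p-values below thus rest on the spread among these samples, and that spread may be technical.

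The liver clears drugs, steroids, bilirubin and bile acids by joining them to a polar group, after which transporters carry the conjugate into bile or blood. UDP-glucuronosyltransferases add glucuronic acid and cytosolic sulfotransferases add sulfate, often after a microsomal cytochrome P450 has oxidised the compound with electrons passed on by the reductase that Por encodes. The nuclear receptors PXR (Nr1i2) and CAR (Nr1i3) and the aryl hydrocarbon receptor (Ahr) respond to foreign compounds and switch on many of these enzymes.

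The 5 Ugt2b genes lie in 1 cluster on chromosome 5 of GRCm38. In the table, Ugt2b34 (ENSMUSG00000029260) spans chr5:86889767-86906937, Ugt2b1 (ENSMUSG00000035836) chr5:86916638-86926530, Ugt2b36 (ENSMUSG00000070704) chr5:87065927-87092555 and Ugt2b5 (ENSMUSG00000054630) chr5:87124960-87140318, all on the minus strand. Ugt2b35 (ENSMUSG00000035811), at chr5:87000860-87013275, is on the plus strand between Ugt2b1 and Ugt2b36. RefSeq promoter windows on GRCm38.p6, from 250 bases before to 50 bases after the start, were found for 9 of the 10 genes, all but Ahr. The windows of the 5 Ugt2b genes share a 13-letter pattern close to the start, and are shown for that reason over 103 bases each. The pattern GTTANNNNTTAAC was the only 1 shared by all 5 windows among patterns of 2 blocks of 3 to 6 letters, with at least 9 fixed letters in all and a gap of at most 10. Capitals mark it; its fixed letters are the outer letters of the recognition sequence of the hepatocyte nuclear factor 1 proteins, which are known activators of liver genes.
Ugt2b1, chr5:86926520-86926622, minus strand: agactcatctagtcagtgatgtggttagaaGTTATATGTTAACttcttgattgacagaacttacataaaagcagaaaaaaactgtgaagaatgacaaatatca
Ugt2b5, chr5:87140329-87140431, minus strand: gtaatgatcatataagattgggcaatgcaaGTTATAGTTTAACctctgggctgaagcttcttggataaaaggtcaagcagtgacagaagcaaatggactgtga
Ugt2b34, chr5:86906938-86907040, minus strand: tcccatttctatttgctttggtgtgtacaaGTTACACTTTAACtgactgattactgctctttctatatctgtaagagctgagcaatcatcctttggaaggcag
Ugt2b35, chr5:87000760-87000862, plus strand: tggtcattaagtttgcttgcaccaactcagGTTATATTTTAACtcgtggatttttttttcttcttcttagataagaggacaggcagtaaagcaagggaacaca
Ugt2b36, chr5:87092547-87092649, minus strand: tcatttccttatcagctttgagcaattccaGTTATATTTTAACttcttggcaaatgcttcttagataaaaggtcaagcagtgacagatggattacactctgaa

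The match began 89 bases before the start in Ugt2b1, 73 in Ugt2b34, 70 in Ugt2b35, 64 in Ugt2b36 and 61 in Ugt2b5. On either strand it occurred in 62 of 32851 promoter windows, or 0.189%. Of the 10 Ugt2 genes with a window, 7 held it, the other two being Ugt2b37 and Ugt2b38, whereas it was not found in Ugt2a1, Ugt2a2 or Ugt2a3. The window of Ugt3a1 held it too. None of the 8 windows of Ugt1 genes, the 1 of Ugt8a or the 20 of sulfotransferase genes, Sult1a1 among them, held these letters, nor did those of Nr1i2, Nr1i3 and Por. The pattern was chosen after the sequences had been seen, and a match of letters is a description of the window, not evidence of binding. Of patterns tied to the receptors, the AHR core GCGTG occurred only in the Por window among the 9, at 3 places, against 32.4% of all windows. The nuclear receptor hexamer AGGTCA occurred once each in Ugt2b5, Ugt2b35 and Ugt2b36, against 16.3% of all windows. The TATA box letters TATAAA were in none of the 9, against 13.6% of all windows, and neither was the tandem pair of AGGTCA with 4 bases between, which 5 of all windows held.

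Each library held 13430122 to 17038017 counts, and a member had between 425 and 16093 counts in a library, so counting error alone was at most 4.85% of a value (1 SD). Levels are given as CPM, counts set to a common library total, after TMM scaling, the edgeR method that evens out differences in composition between libraries. The liver source was checked because the extraction text also speaks of retinas. Marker sums below were taken before TMM scaling, as CPM of each library's own total. The 8 hepatocyte markers summed to 29248 to 61118 CPM in every library, while the 10 retina markers summed to at most 54.2 CPM, with Prph2, Crx, Rcvrn and Rpe65 at 0 throughout. CTL replicate 1 stood apart from the other 11 libraries. Its 17 acute phase genes summed to 150245 CPM, whereas CTL replicates 2 to 4 were at 14353 to 26018 and the DM and DMH libraries at 6910 to 12854. Its 9 neutrophil markers summed to 344 CPM, against 17.3 to 40.1 in the other CTL libraries. Comparisons with CTL are therefore given with and without it for the 10 genes, and for other genes where its removal ended a call or moved a named value by over 1.5 times. The share of counts on mitochondrially encoded genes moved with the groups, with a mean of 15.4 ± 7.36% for the CTL libraries, 24.2 ± 6.55% for DM and 30.1 ± 6.23% for DMH (SD, n = 4 each). The hepatocyte sum moved the other way, from a median of 51533 CPM in CTL (40189 to 61118) to 41782 in DM (36277 to 46109) and 31593 in DMH (29248 to 43263). The total behind these sums includes the mitochondrial counts, so a larger mitochondrial share by itself lowers every other sum. The sums of the 10 periportal markers had medians of 6938, 5294 and 3944 CPM in CTL, DM and DMH, and those of the 10 pericentral markers 8181, 8235 and 4841 CPM. Not every marker moved as its sum did. Of the 10 periportal markers, 1 had a positive edgeR log2 fold change in DM against CTL, 6 in DMH against DM and 0 in DMH against CTL. For the 10 pericentral markers these counts were 7, 2 and 5. Kupffer cell markers, 12 in all, summed to 423 to 964 CPM in CTL, 81.6 to 223 in DM and 140.2 to 504 in DMH. The part of these differences in the results below was not tested, apart from the fit with the mitochondrial share as a covariate. In bulk RNA, fewer cells of a type and less RNA per cell cannot be told apart.

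The 10 genes covered a wide range of levels. Per kilobase of exon in the GENCODE M21 annotation, Ugt2b5 averaged 345 CPM over the 12 libraries, Ugt2b36 averaged 243 and Sult1a1 averaged 223. Nr1i3 followed at 132 CPM per kilobase, above the other two receptors. Ugt2b1 stood at 74.8, Ugt2b34 at 59.9, Por at 59.0, Nr1i2 at 39.2 and Ugt2b35 at 34.1 CPM per kilobase. Ahr was lowest, at 7.37 CPM per kilobase. The exon length covers all annotated transcripts, so the order depends on the length used. For Nr1i3 it was 4414 bases, with 2980 in the longest transcript, and for Por 4021 with 2636. Neighbours in this order had overlapping ranges over the libraries except Ugt2b35 and Ahr, whose ranges were 17.5 to 58.1 and 4.49 to 11.8 CPM per kilobase. Ugt2b1 varied most, with the highest library 8.83 times the lowest, and Nr1i2 least, at 1.58 times.

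**Figure D1:**
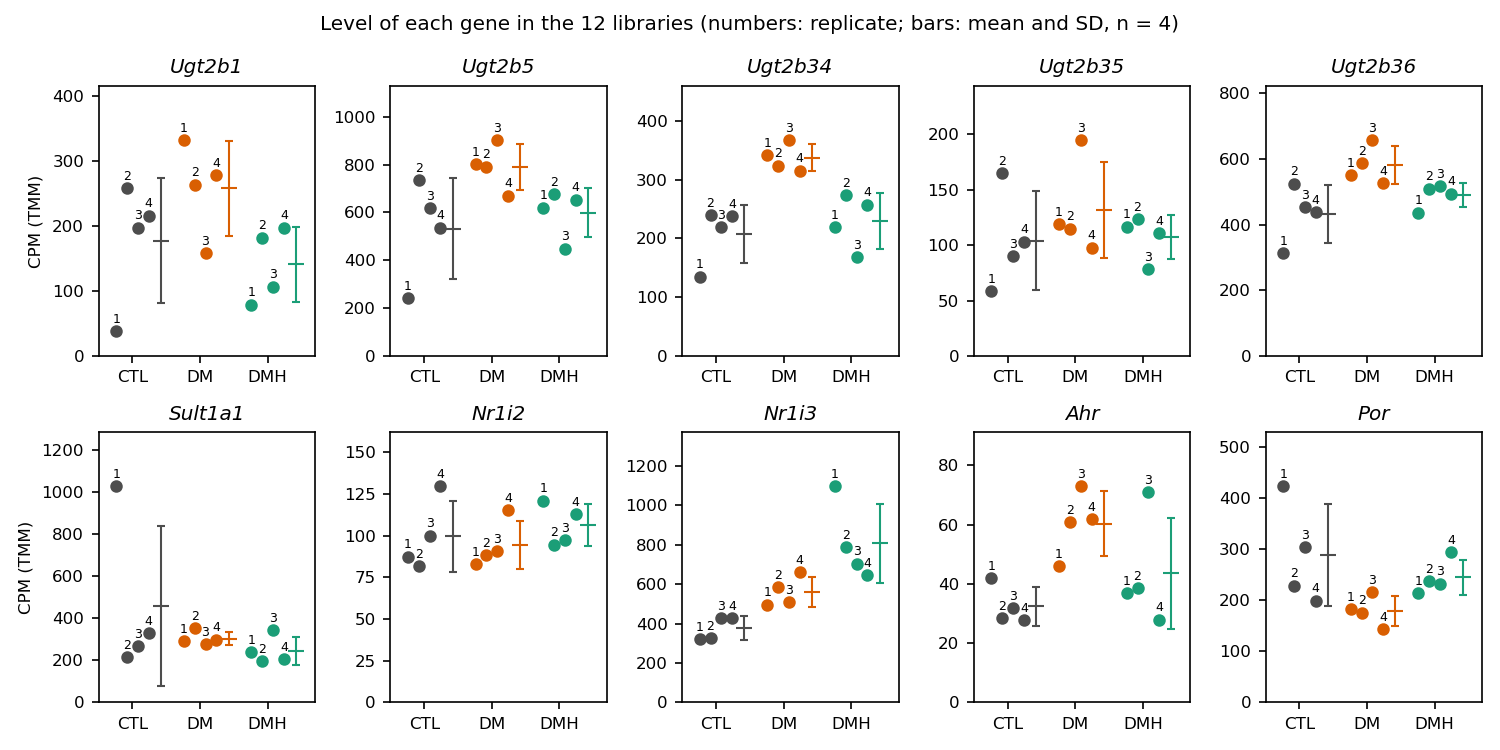
Level of each of the 10 genes in CPM after TMM scaling (vertical axis, from 0) in the CTL, DM and DMH libraries; points are libraries with their replicate number, and bars are the mean and SD of 4 libraries. CTL replicate 1 is the lowest library for all 5 Ugt2b genes and the highest for Sult1a1 and Por, and all 4 DMH libraries lie above all 4 CTL libraries for Nr1i3.

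The question put to each pair of labels was which of the 10 genes differed in level between them. In DM against CTL, edgeR's quasi-likelihood test called none of the 10 at an adjusted p under 0.05, where it called 0.219% of all tested genes, 0.150% higher and 0.0683% lower. At an unadjusted p under 0.05, Ugt2b34, Ugt2b36, Nr1i3 and Ahr were higher and Por was lower, that is 4 and 1 of 10, where 8.43% of all genes were higher and 10.4% lower. DESeq2 called Ugt2b34 and Ahr, both higher, beside 6.37% of all genes, 3.04% higher and 3.33% lower. Limma on the FPKM values called none of the 10, beside 80 of all 14643 genes on log2(FPKM + 1). The same 4 genes, Ugt2b34, Ugt2b36, Nr1i3 and Ahr, had all DM libraries above all CTL libraries, as did 7.32% of all genes, and without CTL replicate 1 they still did, beside 9.58% of all genes. No member had all DM libraries below all CTL libraries, as 7.72% of all genes had. The median log2 fold change of the 10 was 0.48, beside -0.03 over all genes.

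In DMH against DM, edgeR again called none of the 10, beside 0.0341% of all genes, 0.0273% higher and 0.00683% lower. At an unadjusted p under 0.05, Nr1i3 was higher and Ugt2b34 lower, beside 10.4% and 10.3% of all genes. Neither DESeq2, which called 4.92% of all genes, nor limma called a member. Ugt2b34 and Ugt2b36 had all DMH libraries below all DM libraries, as did 7.36% of all genes, and none had them all above, as 5.67% of all genes had. The median log2 fold change of the 10 was -0.30, beside 0.03 over all genes. In DMH against CTL, edgeR called 1 of the 10, Nr1i3, which rose, where 7.25% of all genes were called higher and 8.15% lower. DESeq2 also called Nr1i3 alone of the 10, beside 23.0% of all genes. At an unadjusted p under 0.05 it was again Nr1i3 alone, where 33.0% of all genes passed in either direction. Nr1i3 was also the 1 member whose groups did not overlap, where all DMH libraries were above all CTL libraries for 8.64% of all genes, or 11.4% without CTL replicate 1. The median log2 fold change of the 10 was 0.12, beside -0.01 over all genes. The 3 comparisons share libraries pairwise, so they are not independent of each other.

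**Figure D2:**
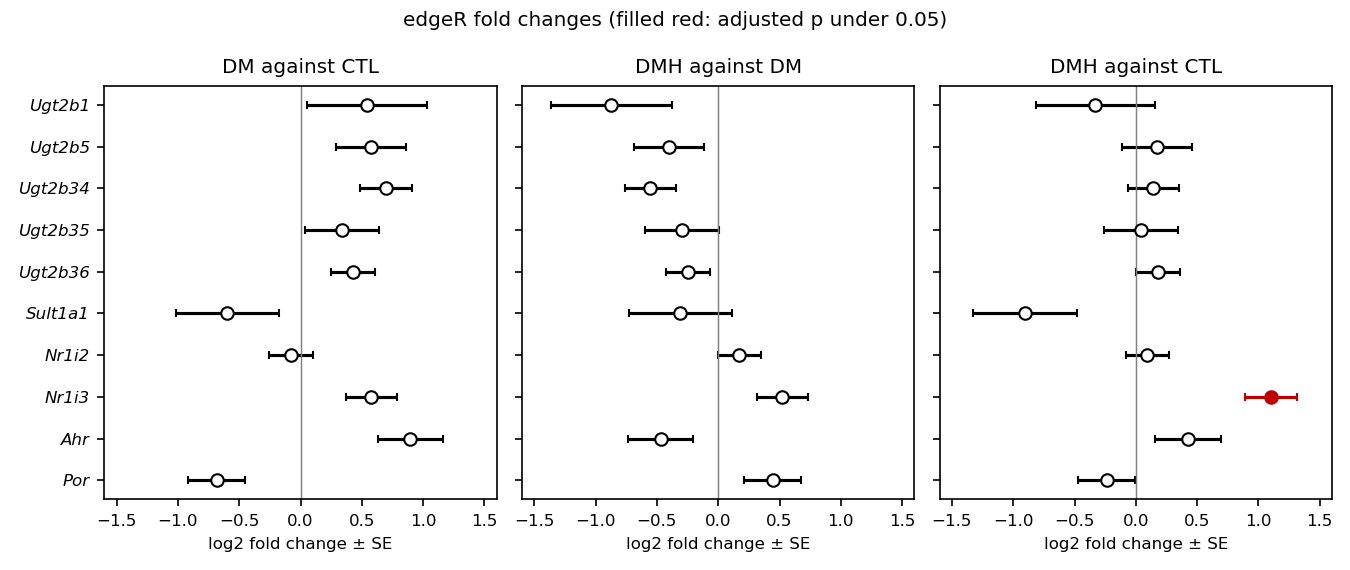
The edgeR log2 fold change of each of the 10 genes with its SE (horizontal axis), with 1 panel for each pair of labels, from 1 model over 12 libraries. The filled red point is the only value past an adjusted p of 0.05, Nr1i3 in DMH against CTL at 1.10.

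Ugt2b5, the most abundant glucuronosyltransferase gene of the 5 per kilobase, was at 240.2, 734, 617 and 536 CPM in the CTL libraries, at 801, 791, 903 and 669.7 CPM in DM, and at 620, 675, 449 and 653 CPM in DMH, each in the order of replicates 1 to 4. DM replicates 1, 2 and 3 were above every CTL library, and CTL replicate 1 was far below the rest. The log2 fold change was 0.57 ± 0.29 (SE) in DM against CTL (edgeR adjusted p 0.305), -0.40 ± 0.29 in DMH against DM (adjusted p 0.448) and 0.17 ± 0.29 in DMH against CTL (adjusted p 0.716). Leaving out CTL replicate 1 gave 0.34 in DM against CTL (adjusted p 0.421) and -0.04 in DMH against CTL. Of the 25-base words of the Ugt2b5 transcript, 62.1% also occur in another gene, 48.8% in Ugt2b38 and 31.7% in Ugt2b37, so its counts depend on how shared reads were assigned. Those copies had few counts, at 2.81 to 17.6 CPM of the plain library total for Ugt2b38 and at most 3.41 for Ugt2b37.

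Ugt2b36 was at 313, 525, 453 and 438 CPM in CTL, at 551, 588, 658 and 527 CPM in DM, and at 437, 509, 518 and 495 CPM in DMH. The DM libraries were above all the others, by a small margin over CTL replicate 2. Its log2 fold change was 0.43 ± 0.18 in DM against CTL (edgeR adjusted p 0.222), -0.25 ± 0.18 in DMH against DM (adjusted p 0.452) and 0.18 ± 0.18 in DMH against CTL (adjusted p 0.523). With CTL replicate 1 left out it was 0.31 in DM against CTL (adjusted p 0.358) and 0.09 in DMH against CTL (adjusted p 0.740). Of its words, 21.2% occur in another gene.

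Ugt2b34 was at 135, 240.02, 219 and 238 CPM in CTL, at 342, 324, 367 and 315 CPM in DM, and at 219, 274, 168 and 257 CPM in DMH. All DM libraries were above all 8 others, and CTL and DMH overlapped. In DM against CTL the log2 fold change was 0.70 ± 0.21 (edgeR adjusted p 0.118), and 0.55 without CTL replicate 1 (adjusted p 0.203). The DESeq2 adjusted p of this comparison was 0.0291, the lowest of 22 alternatives, which reached up to 0.335. In DMH against DM the log2 fold change was -0.55 ± 0.21 (edgeR adjusted p 0.172), and in DMH against CTL it was 0.14 ± 0.21 (adjusted p 0.675), or 0.02 without CTL replicate 1.

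Ugt2b1 was at 37.7, 259, 197 and 216 CPM in CTL, at 333, 264, 158 and 279 CPM in DM, and at 78.8, 182, 107 and 197 CPM in DMH. All 3 groups overlapped, and CTL replicate 1 was below the other 11 libraries. Its log2 fold change was 0.54 ± 0.49 in DM against CTL (edgeR adjusted p 0.589), -0.87 ± 0.49 in DMH against DM (adjusted p 0.335) and -0.33 ± 0.49 in DMH against CTL (adjusted p 0.680). Without CTL replicate 1 they were 0.21, -0.85 and -0.63, and none passed the threshold.

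Ugt2b35, the member on the opposite strand of the cluster, was at 58.8, 165, 89.9 and 103 CPM in CTL, at 119, 115, 195 and 97.8 CPM in DM, and at 117, 123, 78.5 and 111 CPM in DMH. The groups overlapped, with CTL replicate 2 and DM replicate 3 highest. Its log2 fold change was 0.34 ± 0.30 in DM against CTL (edgeR adjusted p 0.584), -0.29 ± 0.30 in DMH against DM (adjusted p 0.611) and 0.04 ± 0.30 in DMH against CTL (adjusted p 0.938). Without CTL replicate 1 it was 0.15 in DM against CTL and -0.12 in DMH against CTL. Without DM replicate 3 it was 0.10 in DM against CTL (edgeR adjusted p 0.909) and -0.02 in DMH against DM (adjusted p 0.979). Without CTL replicate 2 it was 0.66 in DM against CTL (edgeR adjusted p 0.274) and 0.39 in DMH against CTL, so single libraries moved these values by more than 1.5 times.

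Summed over the 5 Ugt2b genes, the level was 784, 1923, 1576 and 1531 CPM in CTL, 2146, 2082, 2281 and 1889 CPM in DM, and 1471, 1764, 1320.2 and 1713 CPM in DMH. All DM libraries were above all DMH libraries, and CTL replicate 2 was the only library of the other groups above a DM library. Across the 12 libraries, the log2 levels of the 10 pairs of Ugt2b genes had Pearson r of 0.54 to 0.91, with a median of 0.80. Without CTL replicate 1 these ran from 0.14 to 0.89, with a median of 0.59 over 11 libraries. These libraries share the group differences, so the values are a description.

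The make-up of the summed level per kilobase was held mainly by Ugt2b5 and Ugt2b36. Ugt2b5 took 37.5 to 50.4% of it and Ugt2b36 took 28.4 to 32.1% in 10 libraries, with 44.1% in CTL replicate 1 and 42.1% in DMH replicate 3. The share of Ugt2b1 ran from 4.25% in CTL replicate 1 to 13.7% in DM replicate 1. The share of Ugt2b34 was 8.45 ± 0.29% in DM and 7.54 ± 0.70% in DMH (SD, n = 4), with no overlap of the groups (exact two-sided permutation p 0.0286, the smallest that 4 against 4 libraries can give). This was the only 1 of 15 such tests under 0.05, and none was under 0.05 after Benjamini-Hochberg adjustment over the 15 (adjusted p 0.429).

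**Figure D3:**
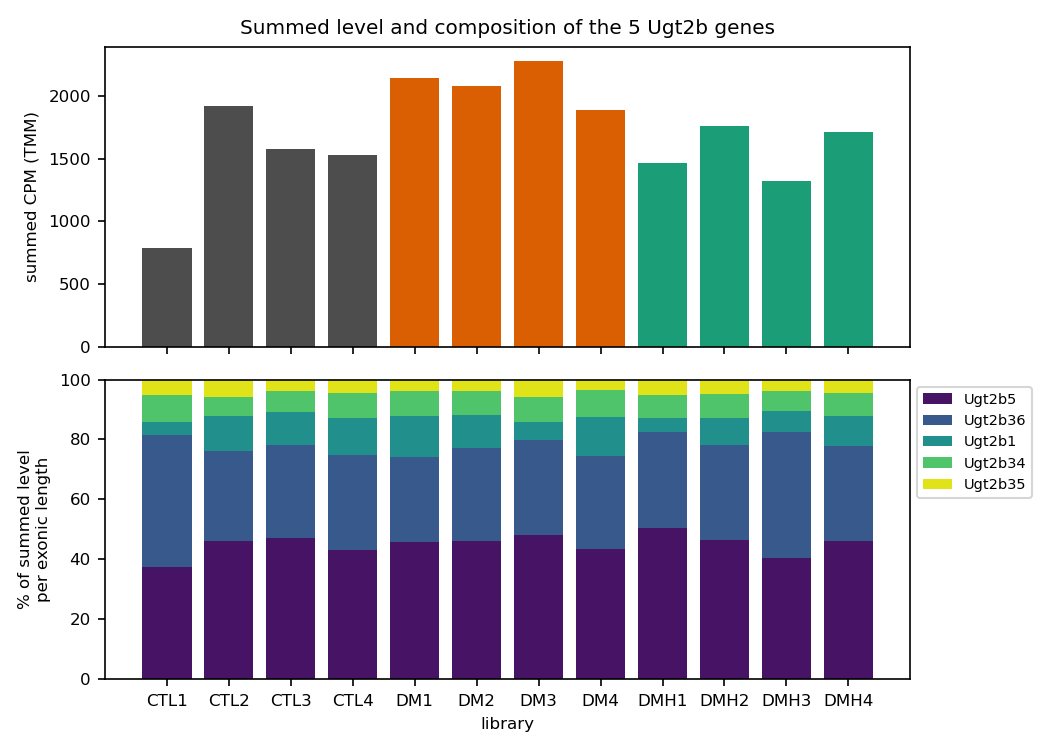
Upper panel, summed level of the 5 Ugt2b genes in CPM in each of the 12 libraries; lower panel, the percentage of the summed level per kilobase of exon taken by each gene. The sum is lowest in CTL replicate 1 at 784 CPM and highest in DM replicate 3 at 2281 CPM, and Ugt2b36 takes a larger percentage in CTL replicate 1 and DMH replicate 3 than in the other libraries.

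Sult1a1 (ENSMUSG00000030711, chr7:126672865-126676432, minus strand) encodes a sulfotransferase of phenols. It was at 1026, 216, 266 and 328 CPM in CTL, at 290.3, 351, 275 and 297 CPM in DM, and at 238, 195, 342 and 206 CPM in DMH. CTL replicate 1 was above the rest and the other 11 libraries overlapped. The log2 fold change was -0.60 ± 0.42 in DM against CTL (edgeR adjusted p 0.470), and 0.18 without CTL replicate 1 (adjusted p 0.741). It was -0.31 ± 0.42 in DMH against DM (adjusted p 0.713) and -0.90 ± 0.42 in DMH against CTL (adjusted p 0.156), the latter -0.11 without that library. Its Pearson r with the Ugt2b genes was -0.80 to -0.58 over 12 libraries and -0.39 to 0.19 over the 11 without CTL replicate 1. Its exons share 61 bases with Sgf29 on the other strand, and 9.97% of its words occur in the gene Gm6939.

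Nr1i3 (ENSMUSG00000005677, chr1:171213970-171220701, plus strand) encodes CAR, which binds DNA as a pair with the retinoid X receptor. It was at 321, 327, 429 and 429 CPM in CTL, at 496, 585, 508 and 660.3 CPM in DM, and at 1097, 787, 705 and 646 CPM in DMH. Every DM and DMH library was above every CTL library, and DM replicate 4 was above DMH replicate 4. Per plain library total, without TMM scaling, DM replicate 2 lay among the CTL libraries and the DMH libraries were still above all of them. Nr1i3 rose in DMH against CTL, by a log2 fold change of 1.10 ± 0.21, or 2.15-fold (edgeR adjusted p 0.0120). The log2 fold change was 0.58 ± 0.21 in DM against CTL (adjusted p 0.162) and 0.52 ± 0.21 in DMH against DM (adjusted p 0.185), neither past the threshold. Without CTL replicate 1 the first of these was 0.52 (edgeR adjusted p 0.273).

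The rise in DMH against CTL was called without each of the 12 libraries in turn, at 0.96 to 1.23 (edgeR adjusted p 0.00563 to 0.0397), and at 1.06 without CTL replicate 1. With the mitochondrial share of each library as a covariate it was 0.64 (edgeR adjusted p 0.401), and under that fit no gene of the table was called in this comparison. In the other 21 alternatives the adjusted p lay between 1.24e-05 and 0.0412. The highest Nr1i3 level and the highest mitochondrial share, 37.6%, were both in DMH replicate 1, and the lowest of both, with a share of 7.88%, in CTL replicate 1.

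The exons of Nr1i3 overlap those of Tomm40l, a gene of the mitochondrial outer membrane import family, on the other strand. They share 3304 bases, 74.9% of the exonic bases of Nr1i3, and the strand setting of the counting is not given in the sources used here, so reads of this stretch cannot be told apart. Tomm40l was counted at 9.35 to 14.8 CPM of the plain library total in CTL, 11.4 to 24.9 in DM and 18.9 to 30.2 in DMH, with a mean of 17.9 beside 572 for Nr1i3. Tomm40l rose too in DMH against CTL, by 1.17 on the log2 scale (edgeR adjusted p 0.0199). It is 1 of the 2 genes most like Nr1i3 over the 12 libraries, with a Pearson r of log2 level of 0.96, after Ermard at 0.97.

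**Figure D4:**
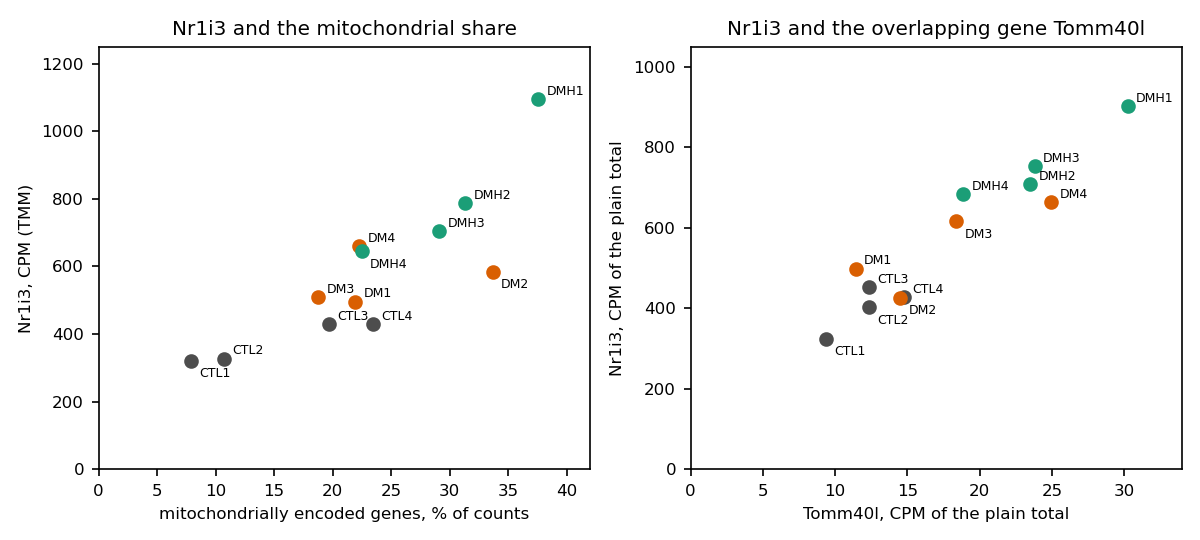
Left, Nr1i3 in CPM after TMM scaling against the percentage of counts on mitochondrially encoded genes; right, Nr1i3 against Tomm40l, both in CPM of the plain library total. Each point is 1 of the 12 libraries, and the 4 CTL libraries lie lowest for Nr1i3 in the left panel, with DMH replicate 1 highest on all axes.

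Nr1i2 (ENSMUSG00000022809, chr16:38248323-38294824, minus strand) encodes PXR, the receptor of steroids, bile acids and many drugs. It was at 87.4, 81.7, 100.03 and 129 CPM in CTL, at 82.9, 88.4, 90.6 and 115 CPM in DM, and at 121, 94.6, 97.2 and 113 CPM in DMH. The groups overlapped throughout. Its log2 fold change was -0.08 ± 0.18 in DM against CTL (edgeR adjusted p 0.853), 0.17 ± 0.18 in DMH against DM (adjusted p 0.612) and 0.09 ± 0.18 in DMH against CTL (adjusted p 0.752). The values against CTL were -0.13 for DM and 0.07 for DMH without CTL replicate 1. None of its 25-base words occurs in another gene.

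Ahr (ENSMUSG00000019256, chr12:35497974-35535038, minus strand), which encodes the receptor of dioxins and of tryptophan products, was at 41.9, 28.5, 31.7 and 27.7 CPM in CTL, at 45.9, 60.7, 72.8 and 61.8 CPM in DM, and at 36.9, 38.5, 70.9 and 27.9 CPM in DMH. Every DM library was above every CTL library, and DMH replicate 3 stood among the DM libraries. In DM against CTL the log2 fold change was 0.90 ± 0.27 (edgeR adjusted p 0.116). This passed the threshold in 3 of 22 alternatives, with DESeq2 (adjusted p 0.0442), with the 8 libraries alone (edgeR adjusted p 0.0456) and without DMH replicate 3 (edgeR adjusted p 0.0454), and reached up to 0.303 in the others; without CTL replicate 1 it was 1.05 (adjusted p 0.154). In DMH against DM it was -0.47 ± 0.27 (edgeR adjusted p 0.336), and -0.79 without DMH replicate 3 (adjusted p 0.109). In DMH against CTL it was 0.43 ± 0.27 (adjusted p 0.290), 0.12 without DMH replicate 3 and 0.61 without CTL replicate 1.

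Por (ENSMUSG00000005514, chr5:135670033-135735326, plus strand), the electron donor of the microsomal P450 enzymes and of haem oxygenase, was at 422, 228, 304 and 199 CPM in CTL, at 183, 176, 216 and 144 CPM in DM, and at 214, 237, 233 and 294 CPM in DMH. CTL replicate 1 was highest, and the DM libraries were mostly below the others, with DM replicate 3 above CTL replicate 4 and DMH replicate 1. The log2 fold change was -0.68 ± 0.23 in DM against CTL (edgeR adjusted p 0.146), and -0.43 without CTL replicate 1 (adjusted p 0.319). It was 0.45 ± 0.23 in DMH against DM (adjusted p 0.296) and -0.24 ± 0.23 in DMH against CTL (adjusted p 0.515), the latter 0.04 without CTL replicate 1.

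The genes most like the other members were those with the highest Pearson r of log2 level over the 12 libraries. For Ugt2b1 it was Elovl3 (0.98), an elongase of very long fatty acids, and for Ugt2b5 it was Ccdc58 (0.97), which was also the gene most like Ugt2b35 (0.92). Ugt2b34 was most like Letm1 (0.93) and Ugt2b36 most like the pseudogene Mup-ps19 (0.91). The second gene for Ugt2b35 was Ugdh (0.90), the dehydrogenase that makes UDP-glucuronic acid, with a Spearman rho of 0.66. For the other Ugt2b genes it was Aldh3a2 for Ugt2b1 (0.95), Abcg2 for Ugt2b5 (0.94), Ccdc58 for Ugt2b34 (0.92) and Csgalnact2 for Ugt2b36 (0.90). It was Btbd2 for Nr1i2 (0.87) and Crym for Por (0.90). Sult1a1 was most like Dap and Serpina3m (0.94 each), Ahr most like Phip and Zfx (0.93 each), Por most like Tmem159 (0.91) and Nr1i2 most like Dhx58 (0.88). The values between the Ugt2b genes moved without CTL replicate 1, and its weight on the values given here was not tested.

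Other genes of the pathway were read from lists of family members, donors, transporters and textbook targets. They held 83 different tested genes. In DM against CTL, edgeR called none of the 83, beside 0.219% of all genes. Limma on log2(FPKM + 1) called none of them, beside 80 of all 14643 genes. DESeq2 called 12, all higher, beside 3.04% of all genes higher and 3.33% lower. At an unadjusted edgeR p under 0.05, 21 were higher and 7 lower, beside 8.43% and 10.4% of all genes. In DMH against DM, edgeR and limma again called none, and DESeq2 called 9, all lower, beside 2.86% of all genes higher and 2.06% lower. Unadjusted, 9 were higher and 21 lower by edgeR, beside 10.4% and 10.3% of all genes. In DMH against CTL, edgeR called 4 of the 83 higher and 5 lower, beside the 7.25% and 8.15% of all genes given above. DESeq2 called 10 higher and 6 lower there, beside 11.8% and 11.2% of all genes, and limma called 2 lower.

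Of 17 other glucuronosyltransferase genes, 13 were tested, and edgeR called none in any comparison. DESeq2 called Ugt2a3 in DM against CTL (adjusted p 0.0290), and Ugt3a1 and Ugt3a2 in DMH against DM (adjusted p 0.0175 for Ugt3a2). The median log2 fold change of the 13 was 0.50 in DM against CTL, -0.51 in DMH against DM and -0.05 in DMH against CTL. Ugt2a3, in the same cluster as the Ugt2b genes, averaged 93.4 ± 16.6 CPM in the CTL libraries, 143 ± 12.8 in the DM libraries and 100.01 ± 18.6 in the DMH libraries (SD, n = 4 each), with a log2 fold change of 0.61 ± 0.18 in DM against CTL (edgeR adjusted p 0.115). Ugt3a2 was at 138 ± 12.1, 195 ± 29.3 and 109.8 ± 29.0 CPM, with -0.83 ± 0.21 in DMH against DM (edgeR adjusted p 0.115). Ugt1a2 and Ugt1a9 share more than 59% of their exonic bases with other Ugt1a genes, so their counts are uncertain. Ugt1a2 had no count in 3 of the 4 DM libraries and in 3 of the 4 DMH libraries. Ugt1a9 was at means of 30.1 ± 20.4, 23.9 ± 14.7 and 8.82 ± 9.996 CPM, with -1.77 ± 1.08 in DMH against CTL (edgeR adjusted p 0.282). Ugt2b37 had at most 49 counts in a library.

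Of 19 other sulfotransferase genes, 7 were tested and edgeR called none in any comparison. DESeq2 called Sult1c2 and Sult2a7 higher in DM against CTL, with an adjusted p of 0.0321 for Sult2a7, and Sult2a7 again in DMH against CTL (adjusted p 0.0317). Their median log2 fold change was 0.68 in DM against CTL, -0.44 in DMH against DM and 0.30 in DMH against CTL. Sult1e1, the oestrogen sulfotransferase, was at 18.6 CPM in CTL replicate 1 and at most 0.71 CPM in the other 11 libraries. Its log2 fold change in DMH against CTL was -4.42 ± 1.38 (edgeR adjusted p 0.0507), and -1.10 without CTL replicate 1 (adjusted p 0.357). Without CTL replicate 4 it was called (edgeR adjusted p 0.0423). The value in DM against CTL was -3.58 ± 1.29 (edgeR adjusted p 0.169), and -0.29 without CTL replicate 1. Sult2a7 was at 2.07 ± 0.28 CPM in CTL, 4.75 ± 2.15 in DM and 4.19 ± 1.47 in DMH, with a log2 fold change of 1.19 ± 0.35 in DM against CTL (edgeR adjusted p 0.115) and 1.01 ± 0.35 in DMH against CTL (adjusted p 0.0672, or 0.0487 without DMH replicate 2). The smallest p in either direction in DMH against DM were those of Sult5a1, at 0.96 ± 0.44 (edgeR adjusted p 0.238), and Sult1c2, at -0.80 ± 0.34 (adjusted p 0.207).

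Of the 11 genes listed for the supply of UDP-glucuronic acid and of the sulfate donor PAPS, edgeR called 1, in DMH against CTL. Of all genes, 7.25% were called higher and 8.15% lower in that comparison. Papss2, which makes PAPS, rose from 88.3 ± 8.22 to 128.6 ± 15.6 CPM, a log2 fold change of 0.54 ± 0.15 (edgeR adjusted p 0.0330). Slc35a3, a carrier of nucleotide sugars into the Golgi, was at 45.1 ± 8.54 CPM in CTL, 68.7 ± 4.37 in DM and 45.4 ± 7.42 in DMH, with 0.60 ± 0.17 in DM against CTL (edgeR adjusted p 0.113, DESeq2 0.0251) and -0.60 ± 0.17 in DMH against DM (edgeR adjusted p 0.129, DESeq2 0.0418). DESeq2 also called Papss1 and Ugp2 higher in DM against CTL, and Slc35b3 higher in DMH against CTL. The PAPS carriers Slc35b2, at -0.37 ± 0.22 in DM against CTL (edgeR adjusted p 0.381) or -0.11 without CTL replicate 1, and Slc35b3, at 0.70 ± 0.25 in DMH against DM (edgeR adjusted p 0.159), were not called in those comparisons. Of the 7 genes of export and cleavage, edgeR and DESeq2 each called 1 higher and 1 lower in DMH against CTL. The shares of all genes there were 7.25% and 8.15% by edgeR and 11.8% and 11.2% by DESeq2. Abcc2, the canalicular exporter of conjugates, rose from 254 ± 44.5 to 475 ± 141 CPM (0.90 ± 0.23, edgeR adjusted p 0.0257). Abcc2 was at 478 ± 88.0 CPM in DM, with a log2 fold change of 0.91 ± 0.23 against CTL (edgeR adjusted p 0.0958). That value passed the threshold with DESeq2 (adjusted p 0.00880), with the 8 libraries alone (edgeR adjusted p 0.0442) and without DMH replicate 3 (edgeR adjusted p 0.0459). Arsb, a lysosomal sulfatase, fell from 9.23 ± 1.15 to 5.49 ± 0.39 CPM in DMH against CTL (-0.75 ± 0.17, edgeR adjusted p 0.0190), and had -0.49 ± 0.17 in DMH against DM (adjusted p 0.156). Abcc4, an exporter on the blood side, had -1.02 ± 0.40 in DM against CTL at means of 0.88 to 1.80 CPM (edgeR adjusted p 0.199). Gusb, the lysosomal glucuronidase, had 0.27 ± 0.34 in DMH against DM (edgeR adjusted p 0.681).

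Of 16 tested partners and repressors of the receptors, edgeR called 1 higher and 3 lower in DMH against CTL, beside 7.25% and 8.15% of all genes. DESeq2 called these and Ncor1, higher, and limma called Hsp90ab1 alone. CAR and AHR are held in the cytoplasm by chaperones of the HSP90 complex. The HSP90 genes Hsp90ab1 and Hsp90aa1 fell, Hsp90ab1 from 638 ± 90.5 to 221 ± 67.3 CPM (-1.53 ± 0.23, edgeR adjusted p 0.0105) and Hsp90aa1 from 29.6 ± 10.3 to 10.4 ± 3.74 CPM (-1.52 ± 0.47, edgeR adjusted p 0.0470). Ptges3, the p23 co-chaperone, fell from 131 ± 11.6 to 76.6 ± 27.6 CPM (-0.77 ± 0.23, edgeR adjusted p 0.0413). Dnajc7, the chaperone known as the CAR retention protein, rose from 54.5 ± 5.90 to 82.1 ± 9.06 CPM (0.59 ± 0.17, edgeR adjusted p 0.0346). Dnajc7 had, in DMH against DM, 0.54 ± 0.17 (edgeR adjusted p 0.134) and Hsp90aa1 -1.99 ± 0.47 (edgeR adjusted p 0.115); DESeq2 called Hsp90aa1 (adjusted p 0.00400) and Hsp90ab1 lower there. Hsp90ab1 had, in DM against CTL, -0.67 ± 0.23 (edgeR adjusted p 0.151) and the coactivator gene Ncoa2 0.57 ± 0.25 (adjusted p 0.246, or 0.0437 with the 8 libraries alone). Of the words of Hsp90aa1, 53.4% occur in other genes, mainly the pseudogene Gm12346, as do 22.2% of those of Ptges3 and 21.3% of those of Hsp90ab1.

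Of the 7 tested AHR target genes, edgeR called none in any comparison, and DESeq2 called Cyp1a2 in DM against CTL (adjusted p 0.0127). Cyp1a2, the main hepatic P450 among them, was at 262 ± 82.9 CPM in CTL, 474 ± 63.3 in DM and 296 ± 57.6 in DMH, with log2 fold changes of 0.85 ± 0.23 in DM against CTL (edgeR adjusted p 0.103) and -0.68 ± 0.23 in DMH against DM (adjusted p 0.147). Cyp1a1 had means of 0.32 to 1.36 CPM in the 3 groups, and its log2 fold change in DMH against CTL was 1.41 ± 0.91 (edgeR adjusted p 0.309). Cyp1b1, likewise low at means of 0.41 to 1.07 CPM, had -0.97 ± 0.63 in DM against CTL (edgeR adjusted p 0.434) and -1.39 ± 0.65 in DMH against CTL (adjusted p 0.156). Both rest on CTL replicate 3, which was at 2.60 CPM against 0.44 to 0.80 CPM in the other CTL libraries, and were -0.05 and -0.45 without it. Tiparp, which feeds back on the receptor, was at means of 5.64 to 6.03 CPM, with 0.09 ± 0.31 in DMH against DM (edgeR adjusted p 0.893). The median log2 fold change of these 7 genes was 0.56 in DM against CTL, -0.62 in DMH against DM and 0.01 in DMH against CTL.

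Of 15 tested target genes of CAR and PXR, edgeR called 1, in DMH against CTL, beside 7.25% of all genes higher and 8.15% lower. DESeq2 called Cyp2c50, Cyp2c54 and Cyp3a25 higher and Cyp3a11 lower there, beside 11.8% and 11.2% of all genes. DESeq2 also called Cyp2c29, Cyp2c50 and Cyp2c54 higher in DM against CTL, and Cyp2c29 and Aldh1a1 lower in DMH against DM. At an unadjusted edgeR p under 0.05, Cyp2b9, Cyp2c29, Cyp2c37, Cyp2c50 and Cyp2c54 were higher and Cyp3a13 lower in DM against CTL. By the same rule, Cyp3a25 was higher and Aldh1a1, Cyp2b10, Cyp2c29, Cyp2c50 and Cyp2c55 were lower in DMH against DM. Cyp2c50, Cyp2c54 and Cyp3a25 were higher and Cyp2c55 and Cyp3a11 lower by it in DMH against CTL. Cyp2c54 rose from 218 ± 87.7 to 473 ± 113 CPM in DMH against CTL (1.12 ± 0.30, edgeR adjusted p 0.0284), and 49.2% of its words occur in other genes, mainly Cyp2c50. The median log2 fold change of the list was 0.35 in DM against CTL, -0.18 in DMH against DM and -0.19 in DMH against CTL. Over all genes the medians were -0.03, 0.03 and -0.01. Cyp2c50 itself was at 284 ± 66.1 CPM in CTL, 653 ± 75.3 in DM and 446 ± 135 in DMH, with 1.20 ± 0.25 in DM against CTL (edgeR adjusted p 0.0626). That value passed with DESeq2 (adjusted p 0.000472) and, by edgeR, with no filter, with the 8 libraries alone and without DMH replicate 1 or 3 (adjusted p 0.0280 to 0.0489). Cyp2c29 was at 114 ± 39.8, 234 ± 101 and 87.8 ± 16.9 CPM, with -1.41 ± 0.32 in DMH against DM (edgeR adjusted p 0.108, DESeq2 0.00525). Cyp3a25, of which 54.0% of the words occur in other genes, had 0.61 ± 0.26 in that comparison (edgeR adjusted p 0.212). Cyp3a13 was at 445 CPM in CTL replicate 1 and at 68.4 to 147 CPM in the other 11 libraries, with -1.17 ± 0.43 in DM against CTL (edgeR adjusted p 0.175), or -0.35 without that library.

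Of 11 electron carriers and haem enzymes listed beside Por, edgeR called 1, in DMH against CTL, where DESeq2 called it and Cyb5r1, higher. The shares of all genes there were 7.25% higher and 8.15% lower by edgeR, and 11.8% and 11.2% by DESeq2. DESeq2 called Fdx1 higher in DM against CTL, and Cyb5a and Cyb5b lower in DMH against DM. Hmox2, the constitutive haem oxygenase, fell from 31.1 ± 11.1 to 14.2 ± 3.13 CPM (-1.14 ± 0.24, edgeR adjusted p 0.0155). Its exons overlap those of Cdip1 on the other strand over 40.2% of their bases, and Cdip1 was the more abundant, at a mean of 155 CPM of the plain library total beside 23.1, so its value is uncertain. Cyb5b, a cytochrome b5, was at 106 ± 8.88 CPM in CTL, 134 ± 23.8 in DM and 87.1 ± 5.62 in DMH, with -0.62 ± 0.15 in DMH against DM (edgeR adjusted p 0.115, DESeq2 0.0116). The mitochondrial carrier Fdx1 had 0.66 ± 0.20 in DM against CTL (edgeR adjusted p 0.119), past the threshold with DESeq2 (0.0417) and with the 8 libraries alone (edgeR 0.0355). Its reductase Fdxr had 0.65 ± 0.25 in DMH against DM (edgeR adjusted p 0.172). Hmox1, the inducible haem oxygenase, was at 10.4 to 28.9 CPM in CTL, 4.71 to 9.73 in DM and 4.71 to 16.8 in DMH, with -1.32 ± 0.46 in DM against CTL (edgeR adjusted p 0.152). With the mitochondrial share as a covariate none of the 9 list genes named as called in DMH against CTL passed the threshold, at edgeR adjusted p of 0.394 to 0.559. Without CTL replicate 1, Dnajc7 (edgeR adjusted p 0.0583), Hsp90aa1 (0.0619) and Ptges3 (0.0795) were no longer called. All 9 but Hsp90ab1 lost the call without at least 1 library, at edgeR adjusted p of up to 0.127.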

How the data were processed

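The series' design text names FastQC 0.11.8 and Trimmomatic 0.36 for the reads, HISAT2 2.1.0 for alignment to GRCm38, and StringTie for counting. StringTie's version, its annotation and its use of strand are not stated (not given in the sources used here). DESeq2 is listed in the submitters' processing notes, with no role. The authors deposited a read count and an FPKM value per gene and library. For the 10 genes the deposited FPKM divides the count by the sum of all distinct exon records, which counts overlapping exons more than once (8619 bases against 4414 exonic bases for Nr1i3), so levels between genes were set per kilobase of GENCODE M21 exon.

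Counts were tested with edgeR 4.0.16 in R 4.3.3 (TMM, filterByExpr with minimum count 10 and total 15, robust quasi-likelihood, 1 model of 12 libraries with 9 residual degrees of freedom), with Benjamini-Hochberg adjustment over 14643 genes. Alternatives were DESeq2 1.42.0, limma 3.58.1 on log2 FPKM plus 1 or 0.1, other scaling, filters, call rules and sample sets, a covariate, a replicate block and each library left out; the separation of groups without CTL replicate 1 was added after seeing the data. The scripts were tested on simulated data. Members and lists were chosen with earlier results of these data known. Named were all members, every called gene of a list, otherwise its smallest p in either direction, and the genes with the highest r to each member. For the CAR and PXR targets, genes with an unadjusted edgeR p under 0.05 were listed by symbol too.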

Additional observations from a re-analysis of the deposited data

Results flagged for a closer look

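In 48 groups of 4 values (levels of the 10 genes and composition of the Ugt2b sum, among CTL, DM and DMH), 4 values lay far from the other 3 of their group by Dixon's test at the 95% level, which flags about 1 in 20 groups by itself. Sult1a1 was at 1026 CPM in CTL replicate 1, against 216 to 328 CPM in the other CTL libraries. Ugt2b36 took 44.1% of the summed Ugt2b level per kilobase in CTL replicate 1, against 29.8 to 31.7% in the others. Ugt2b36 also took 42.1% in DMH replicate 3, against 31.6 to 32.1% in the other DMH libraries. Ugt2b35 took 5.75% in DM replicate 3, against 3.52 to 3.76% in the other DM libraries.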

How the results depend on the processing

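Of 660 values of the 10 genes under alternatives, 641 kept their direction and side of the threshold. Of 1020 values of other named genes, 915 did, 79 lost the call, 23 gained it and 3 turned sign. With each library left out in turn, 7 to 248 genes and 0 to 1 members were called in DM against CTL (1 without DMH replicate 3, Ahr), 1 to 155 genes in DMH against DM (155 without DMH replicate 4) and 623 to 2967 in DMH against CTL (623 without CTL replicate 2, 2967 without DMH replicate 4); 248 was without DMH replicate 3. In DM against CTL (32 genes called, no member), no filter gave 65 genes, DESeq2 929 and 2 members, limma on log2(FPKM + 1) 80, the 8 libraries alone 367 and 1 member, the mitochondrial share as a covariate 3, and a fold of 2 with unadjusted p 1154. In DMH against DM (5 genes, 4 higher and 1 lower), RLE size factors gave 4 higher and 0 lower, a minimum count of 50 gave 12, DESeq2 718, the covariate 2 and the fold rule 749. In DMH against CTL (2255 genes, 1 member), limma gave 1012 (pseudocount 1) and 866 (0.1), the 8 libraries 629, and the covariate 0 genes and 0 members. The cause of these shifts was not tested.

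Signs turned for 17 values, none past the threshold. With a library left out, log2 fold changes ran in DM against CTL from -0.8208 to 0.1777 for Sult1a1 (0.18 without CTL replicate 1) and from -0.1908 to 0.0725 for Nr1i2 (highest without CTL replicate 4). In DMH against CTL they ran from -0.0381 to 0.40 for Ugt2b5, from -0.1213 to 0.387 for Ugt2b35 and from -0.3809 to 0.0386 for Por, each turned without CTL replicate 1, and Ugt2b35 also without DMH replicate 2 (-0.0315). In DMH against DM they ran from -1.62 to 9.24 for Ugt1a2 (negative without DMH replicate 3) and from -0.056 to 0.297 for Tiparp (negative without DM replicate 4 or, at -0.0282, DMH replicate 1). In DMH against CTL, limma gave Ugt2b34 -0.0058 and -0.0050, Ugt2b35 -0.0435 and -0.0413 and Nr1i2 -0.0505 and -0.0516, and the covariate gave Nr1i2 -0.11 and Por 0.19.

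Same-numbered libraries had deviations from their group means with r of -0.13 to 0.11 over all tested genes. Differently numbered libraries were not set beside them, so whether replicate numbers pair the libraries was not tested. With the replicate block, 1 gene was called in DM against CTL, 1 in DMH against DM and 1001 in DMH against CTL, where Nr1i3 was 1.10 (edgeR adjusted p 0.0393). No composition test of 3 against 4 can give an exact p under 0.0571.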
